A study of Mus musculus with 2 samples.

Results

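The ErbB receptors and a set of their feedback inhibitors were examined in mammary epithelial cells of mice lacking Cuzd1, which encodes a CUB domain protein, and of heterozygous littermates. The 10 genes are the receptors Egfr, Erbb2, Erbb3 and Erbb4, the receptor inhibitors Errfi1 and Lrig1, and the pathway inhibitors Phlda1, Spry2, Spry4 and Dusp6. They were chosen by name. Every probe set whose only annotated gene was one of the 10 was taken, which gave 24 of the 45101 probe sets on the array, and 10 of the 18193 genes with a probe set. Both groups were of predominantly C57BL/6 background. The null mice came from a germline knockout made in embryonic stem cells, so every cell of the animal carried it, and the controls carried 1 disrupted and 1 normal allele; wild-type mice were not analysed here. The females were mated and taken on day 18 of pregnancy, and no source used here gives their age. For each genotype, the RNA of 5 mice was mixed and measured on 1 array. No test was therefore possible, and each difference below is between those 2 pools.

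The ErbB family links growth factors outside the cell to growth and survival programs inside it. Ligands of the EGF family bind Egfr, Erbb3 or Erbb4, the receptors pair up, and the paired kinases phosphorylate each other and recruit the RAS-ERK and PI3K-AKT pathways. Erbb2 has no known ligand and acts as a partner, and Erbb3 has a weak kinase and signals mainly through its partner. In the mammary gland Egfr supports duct growth during puberty, and Erbb4 takes part in alveolar differentiation late in pregnancy. Signalling also induces its own inhibitors. Errfi1, also called Mig6, binds and blocks the receptor kinase, Lrig1 promotes receptor degradation, Sprouty proteins act on the steps to RAS and ERK, and Dusp6 removes phosphate from ERK.

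Promoter sequence from RefSeq (mouse build GRCm38.p6) was found for 7 of the 10 genes, as 8 promoters, 2 of them for Errfi1. The 250 bases before the start were searched on both strands for TGACGTCA, the cyclic AMP response element, TATAAA, the TATA box, CCGGAA, a core of ETS factor sites, TGANTCA, an AP-1 site, TTCNNNGAA, a STAT site, and the CArG box of serum response factor. TGACGTCA and TATAAA were each found in 1 of the 8 promoters, the same one of Errfi1, and in 1.55% and 12.4% of all 32851 promoters of this length. CCGGAA was found in the promoters of Egfr and Erbb4 and in 12.0% of all. The other motifs were in none of the 8, and in 6.75% (TGANTCA), 7.02% (TTCNNNGAA) and 1.47% (CArG) of all. The matches in the sequences printed do not overlap. The promoters of Errfi1 and Egfr are shown because Errfi1 is an inhibitor whose transcription is part of the feedback and Egfr is the receptor the submitters' labels name. Capitals mark the motif matches. A match is a description of the sequence only.

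Errfi1, chr4:150854820-150855069, plus strand, with TGACGTCA starting 51 bases and TATAAA 28 bases before the transcript start: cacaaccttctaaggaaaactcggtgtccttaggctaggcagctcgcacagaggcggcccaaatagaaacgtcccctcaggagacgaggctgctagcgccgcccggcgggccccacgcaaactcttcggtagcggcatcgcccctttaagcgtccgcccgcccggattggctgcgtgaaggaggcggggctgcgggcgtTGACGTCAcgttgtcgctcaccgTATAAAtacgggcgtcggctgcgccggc

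Egfr, chr11:16751953-16752202, plus strand, with CCGGAA on the minus strand 119 bases before the start: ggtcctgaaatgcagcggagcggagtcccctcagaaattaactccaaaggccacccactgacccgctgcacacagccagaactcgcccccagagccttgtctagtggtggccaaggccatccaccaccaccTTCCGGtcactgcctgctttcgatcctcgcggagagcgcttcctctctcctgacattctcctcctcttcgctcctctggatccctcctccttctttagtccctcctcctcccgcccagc

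Values are linear MAS5 signals in intensity units. Signals of different probe sets depend on the probes and were not compared with each other as amounts of RNA. Summed signals of a list, given below, are led by its brightest probe sets and do not measure cell content. Dim signals are dominated by background, and values under the median of an array's non-control probe sets were set to that median, its floor, 34.2 units for the heterozygous and 32.5 for the null array. Ratios are log2 of null over heterozygous after flooring, and a gene takes its value from the probe set whose mean over both arrays was highest. A gene is called measured when that probe set was above the floor on at least 1 array, which held for 9 of the 10 genes and for 11893 genes in all. Of the 24 probe sets, 15 were above the floor on both arrays, 2 on 1 array and 7 on neither.

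The arrays were alike in 3′ over 5′ signal ratios, at 1.27 and 1.24 for actin and 0.794 on both arrays for Gapdh. They were not alike in the added control transcripts, described below. These read lower on the null array at 8 of 9 hybridization and 12 of 12 poly-A control probe sets. The targeted gene does not check the labels, because Cuzd1 read 32.4 units in the heterozygous and 33.98 in the null pool, both at about the floor, and no source used here places its probe set relative to the deleted part. The luminal markers Epcam, Krt8, Krt18, Krt19, Cldn3 and the casein Csn2 were all above the floor on both arrays, which fits the label of epithelial cells. Fibroblast, endothelial and myeloid markers were above the floor as well, so the pools also held RNA of other cells.

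The measured ErbB receptors and feedback genes lay close together between the pools. Their log2 ratios ran from -0.23 (Erbb2) to 0.16 (Errfi1), with 4 genes above 0 and 5 below, and a median of -0.08. The largest difference was 1.17-fold. None of the 9 was 2-fold apart, against 2.15% of all measured genes (1.12% higher and 1.03% lower in null cells). None was 1.5-fold apart either, against 10.8% of all (5.83% higher and 4.93% lower). Over all measured genes the median was 0.03, with quartiles of -0.18 and 0.23, and 54.6% of them lay as near to 0 as Erbb2 or nearer. Most measured genes thus lay within the bound set by Erbb2, the farthest of the 9, when genes of all signals were counted. Among genes nearest in signal, those at least as far from 0 made up 57.2% for Erbb2 and 70% for Spry4. They made up 71.6% for Erbb3, 74.8% for Lrig1, 77.4% for Spry2 and 86.8% for Egfr. The share was lower for the rest, at 41% for Errfi1 and 48% each for Phlda1 and Dusp6.

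**Figure D1:**
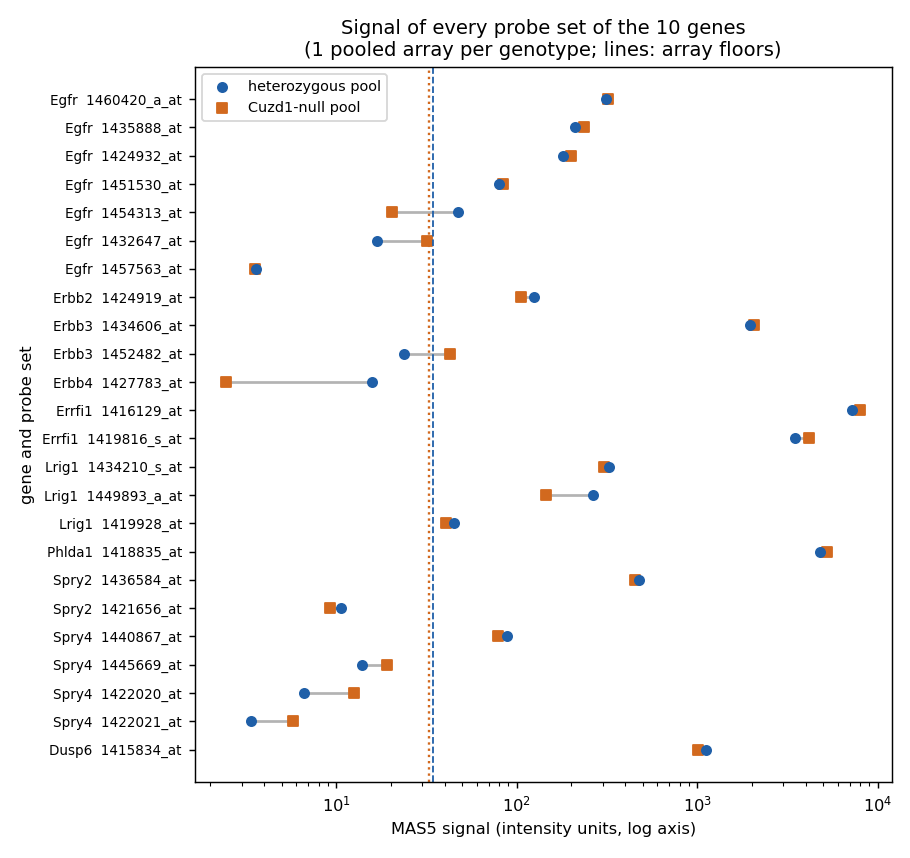
MAS5 signal (intensity units, log axis) of each of the 24 probe sets in the heterozygous pool (circles) and the null pool (squares); each symbol is 1 array, a line joins the pair, and the vertical lines are the floors of 34.2 and 32.5 units. Both symbols nearly coincide for most probe sets to the right of the floors, and Lrig1 probe set 1449893_a_at, at 265 and 145 units, is the widest pair above both.

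Egfr, the receptor for EGF, TGF-alpha and amphiregulin, was covered by 7 probe sets. Its gene value came from probe set 1460420_a_at, which read 311 units in the heterozygous and 321 in the null pool, a log2 ratio of 0.04. The 3 others above both floors read 212 and 236 units (0.16), 181 and 200.0 units (0.14), and 79.98 and 84.1 units (0.07). All 4 thus read slightly higher in the null pool. The ratio at 1454313_at was -0.55, from 47.5 units in heterozygous cells and 20.4 units, below the floor, in null cells, so that it was at least 1.46-fold lower there. Of the 500 measured genes nearest in signal to that probe set, 7.8% had a ratio at least as far from 0. The last pair of probe sets lay below the floor on both arrays. Because 1454313_at was above the floor on the heterozygous array only, after flooring it could only read lower in null cells. It therefore gives no independent direction beside the 4 probe sets above both floors.

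Erbb2, the partner receptor without a ligand of its own, had 1 probe set, at 124 units in the heterozygous and 106 in the null pool, a ratio of -0.23. This was the lowest gene ratio of the 9, yet 57.2% of the 500 genes nearest in signal were at least as far from 0. Erbb3, the neuregulin receptor that couples strongly to PI3K, read 1965 and 2073 units, a ratio of 0.08. At its second probe set the heterozygous signal (23.6 units) was under the floor and the null signal (42.8 units) over it, a ratio of 0.32. The first Erbb3 probe set was slightly higher in the null pool. The second was above the floor on the null array only, so after flooring it could only read higher there. Erbb4, the receptor of neuregulins and betacellulin, read 15.9 and 2.46 units at its only probe set. Both values are below the floor, so no direction is given for Erbb4, although the unfloored signals differ.

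Errfi1, the kinase-binding inhibitor, was higher in null cells at both of its probe sets. The first read 7179 units in the heterozygous and 7998 in the null pool, a ratio of 0.16, and the second 3478 and 4164 units, a ratio of 0.26. Their ratios differed by 0.10. Among the 500 genes nearest in signal, 41.0% and 25% respectively had ratios at least as far from 0. The robust SD per probe set, from 4722 genes with 2 probe sets above both floors, was 0.21, so the first ratio is inside that spread and the second just outside it. That spread reflects variation between probe sets of the same 2 pools and does not replace replicate error.

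Lrig1, the transmembrane protein that promotes receptor degradation, had 3 probe sets above both floors that differed in size. Its gene value came from 1434210_s_at, at 323 units for the heterozygous and 304 for the null pool, a ratio of -0.09. Probe set 1419928_at read 44.9 and 40.4 units, a ratio of -0.15. Probe set 1449893_a_at read 265 and 145 units, a ratio of -0.86, which is 1.82-fold lower in null cells. It was the only one of the 17 probe sets above a floor that was 1.5-fold apart, against 12.0% of all such probe sets on the array. Of the 500 genes nearest it in signal, 2.6% were as far from 0. All 3 were below 0 on the deposited scale, and the first 2 of them turned above 0 when rescaled to the control transcripts. The gap between the pair with the highest signals was 0.78, and 4.55% of the 4722 genes with 2 such probe sets had a gap as large.

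**Figure D2:**
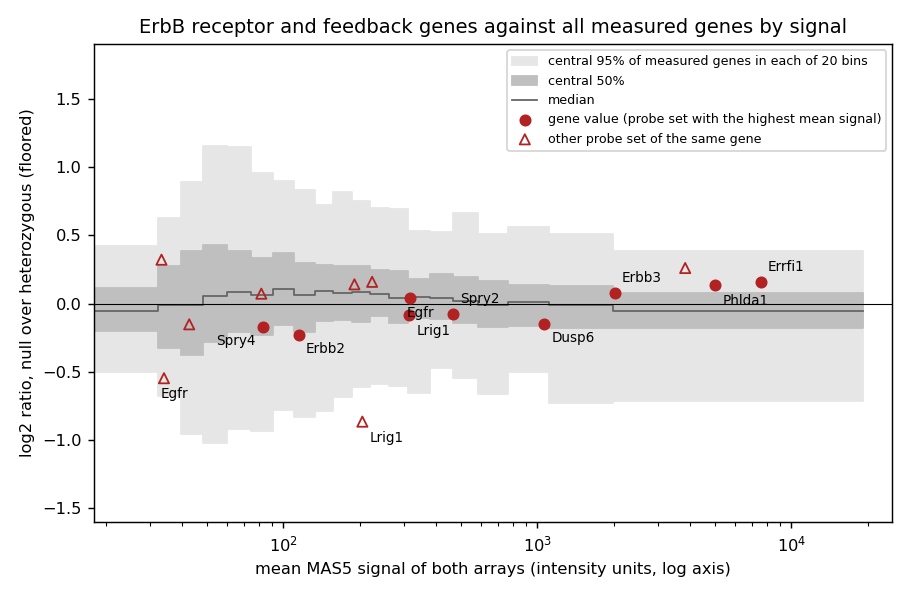
Log2 ratio of null over heterozygous (floored) against mean signal of both arrays (intensity units, log axis) for the 17 probe sets above a floor; filled circles are the gene values, open triangles the other probe sets, and grey bands the central 50% and 95% of all measured genes in 20 bins of signal. The gene values lie between -0.23 and 0.16, and the Lrig1 triangle at -0.86 lies below the 95% band.

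Among the inhibitors further down the pathway, Phlda1, a pleckstrin homology-like protein that restrains AKT, read 4786 units in the heterozygous and 5258 in the null pool, a ratio of 0.14. Dusp6, the cytoplasmic ERK phosphatase, read 1119 and 1009 units, a ratio of -0.15. Spry2 read 479 and 454 units, a ratio of -0.08, with its other probe set below the floor on both arrays. Spry4, a second Sprouty protein, read 88.5 and 78.4 units at the 1 of its 4 probe sets above the floor, a ratio of -0.17. Between 48.0% and 77.4% of the 500 genes nearest in signal to each of these 4 were at least as far from 0. The ERK-directed inhibitors Dusp6, Spry2 and Spry4 thus read slightly lower and Phlda1 slightly higher, all by less than 0.21, the spread between probe sets.

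These small signs rest on the scaling of the arrays. The 9 hybridization controls and 12 poly-A controls, transcripts added in the usual protocol, had median log2 ratios of -0.23 and -0.26. Rescaling to the hybridization controls moved the median of all measured genes from 0.03 to 0.26 and that of the ErbB receptors and feedback genes from -0.08 to 0.15. Then 8 of the 9 were above 0, with Erbb2 at -0.00, and rescaled to the poly-A controls all 9 were. Erbb3, Errfi1 and Phlda1 were above 0 under each of the scalings, floors and probe set rules tried. Egfr was below 0 in 1 setting, the mean over its measured probe sets, at -0.03. That mean includes the probe set above the floor on the heterozygous array only. Erbb2, Lrig1, Spry2, Spry4 and Dusp6 were below 0 as deposited and above it under 1 or both of these control scalings. The order of the genes by ratio does not depend on a common factor, and the full spread from Erbb2 to Errfi1 was 0.39.

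**Figure D3:**
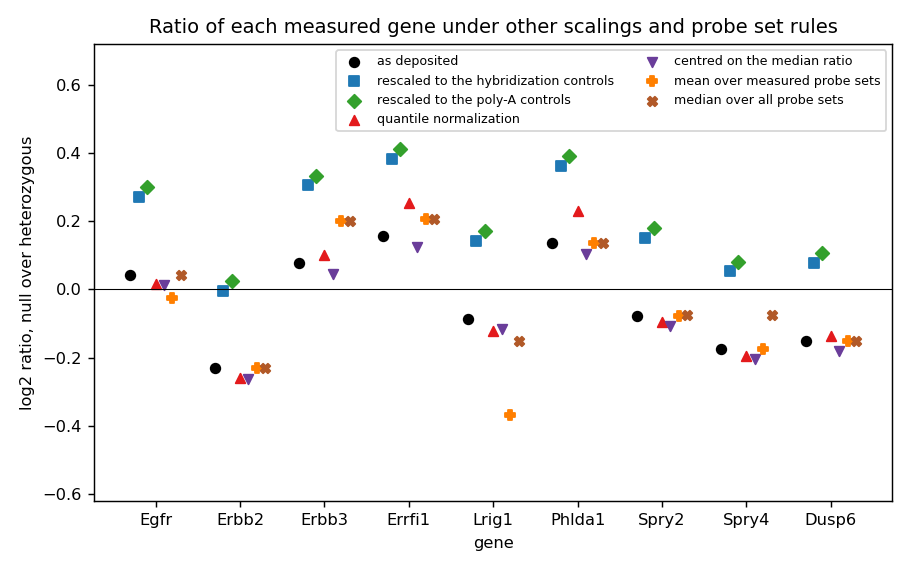
Log2 ratio of null over heterozygous for each of the 9 measured genes as deposited (black circles) and under 6 other scalings or probe set rules (coloured symbols); each symbol is 1 value from the same 2 arrays, without error bars. Squares and diamonds, the control scalings, stand above the black circles by 0.23 and 0.26 for each gene, and the mean over probe sets takes Lrig1 to -0.37.

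The ligands of these receptors that were above both floors had log2 ratios from -0.82 to 0.40. Of 11 listed EGF family ligands 5 were above the floor on both arrays, with a median ratio of -0.08: Egf at -0.82, Tgfa at -0.70, Btc at -0.08, Hbegf at 0.01 and Nrg2 at 0.40. A further 3, Epgn, Ereg and Nrg1, were above it on the heterozygous array only, so that they could only read lower in null cells; with them the median over 8 was -0.68. Epgn, epigen, read 129 and 24.1 units, at least 3.97-fold lower, Ereg, epiregulin, 72.1 and 22.3 units, at least 2.22-fold lower, and Egf 163 and 92.2 units. The labels name this family, so its list is not independent evidence of a direction. The median over measured ligands stayed below 0 under each alternative, from -0.71 with no floor to -0.06 with a floor at each array's 75th percentile, where 2 ligands were left and 1 of them was above 0. At the main floor this median includes Epgn, Ereg and Nrg1, so its steady sign is not support for a direction. Rescaling to the controls adds 0.23 or 0.26 to each ratio, which takes the median of -0.08 over the 5 above both floors above 0. Ligands are released by cell-surface proteases. All 8 genes of the shedding list were measured, with 4 ratios above 0 and 4 below and a median of -0.04. None was 1.5-fold apart, against 10.8% of all measured genes. Within that list Adam9, a metalloprotease, had a ratio of -0.20 and Timp3, an inhibitor of such proteases, 0.06.

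The adaptor and RAS-ERK list and the PI3K-AKT list, the signal-carrying steps below the receptors, had medians near 0. Their single genes ran from -0.38 to 0.68 and from -0.33 to 0.32. All 15 genes of the adaptor and RAS-ERK list with a probe set were measured, with 8 above 0 and 7 below and a median of 0.02. Gab2, a docking protein, was the 1 member 1.5-fold apart, at 209 and 336 units (0.68), against 10.8% of all measured genes. Its other probe sets had ratios of -0.74 and 0.25, so no direction is given for it. In the PI3K-AKT list 11 of 14 genes were measured, with a median of 0.03. None was 1.5-fold apart, against the same 10.8% of all measured genes. With the mean or the median over probe sets the list's median was -0.07, with 4 genes above 0 and 7 below. Pik3r1, the regulatory subunit of PI3K, had 0.03, with -0.08, 0.24 and -0.36 at its remaining probe sets, and the kinase Akt1 had -0.33, with -0.05 and -0.43 at its other readable probe sets. Receptor trafficking and degradation genes had a median of 0.15 over 16 of 17, with 2 of them 1.5-fold higher and 0 lower, against 5.83% and 4.93% of all measured genes. These were Sh3kbp1, an adaptor of the ubiquitin ligase Cbl (157 and 265 units, 0.75), and Eps15, an endocytic adaptor (228 and 356 units, 0.64). Their next probe sets had ratios of -0.01 for Sh3kbp1 and 0.06 for Eps15, and the third -0.75 and -0.25. These higher values therefore rest on single probe sets, and with the median over all probe sets the list's median was -0.02.

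Other feedback inhibitors, among them further Sprouty, Spred and Dusp genes, had a median of 0.10 over 15 of 18 measured members, with 9 above 0 and 6 below. Dusp7, like Dusp6 a cytoplasmic ERK phosphatase, read 620 and 339 units, a ratio of -0.87. Its other probe sets read 612 and 334 units (-0.87) and 266 and 181 units (-0.55), so that all 3 were lower in null cells. Dusp2, a nuclear phosphatase of MAP kinases, read 64.2 and 105 units, a ratio of 0.71. The listed ERK target transcription factors had a median of 0.13 over 18 of 20 members. Of these, 1 was 1.5-fold higher and 2 lower, beside the same shares of 5.83% and 4.93% over all genes. Elk1 was above the floor on the null array only, so it could only read higher. Over the 17 above both floors the median was 0.12, with 11 above 0 and 6 below. Egr2 read 427 and 235 units (-0.86) and, at its other probe set, 274 and 123 units (-1.16). Myc, which drives growth and proliferation genes, read 1784 and 982 units (-0.86), and Fosb, a subunit of AP-1, 1232 and 2069 units (0.75). Members of this list thus lay on both sides of 0, as did the 9 measured receptor and inhibitor genes. Over the scalings, floors and probe set rules, Dusp7 ran from -0.90 to -0.62, Egr2 from -1.01 to -0.61 and Myc from -0.89 to -0.61. Dusp2 stayed at or above 0.68 where it was measured and Fosb at or above 0.72, so none of these 5 changed sign. At the highest floor tried Dusp2 was not measured, being dimmer on both arrays than Erbb2, which was not measured there either. Dusp2, Myc and Fosb had a single probe set each, so the probe set rules could not move them.

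**Figure D4:**
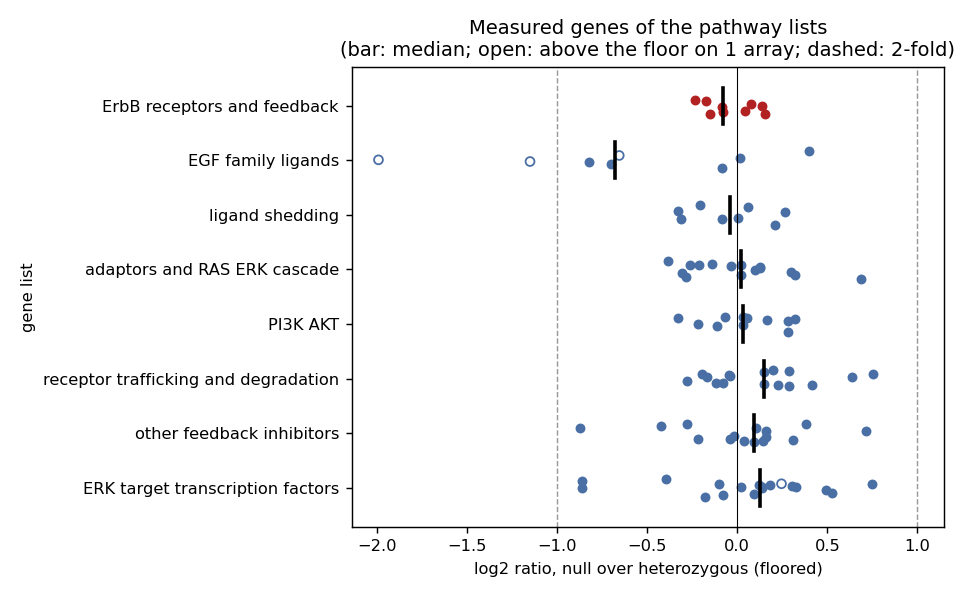
Log2 ratio of null over heterozygous (floored) of each measured gene in the ErbB receptor and feedback set (red) and 7 lists of the same pathway (blue); filled points were above both floors, open points above 1, black bars are medians and dashed lines mark 2-fold. The red points span -0.23 to 0.16 around a median of -0.08, and the EGF family ligands have a median of -0.68, or -0.08 over the 5 filled points.

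Marker genes of several cell types also differed in signal between the pools. All 6 fibroblast markers were higher in the null pool, with a median ratio of 0.59 and a summed signal of 7097 units in heterozygous and 10749 in null cells, as were all 5 endothelial markers (median 0.37, summed 829 and 1170 units). Within the fibroblast list ratios ran from 0.06 for Col1a1 to 1.61 for Pdgfra, whose other readable probe set had 0.04. Of 5 myeloid markers 4 were higher (median 0.43, summed 3576 and 4825 units). These were Ptprc at 0.87, Csf1r at 0.50, Lyz2 at 0.43 and Cd68 at 0.18, while Adgre1 was at -0.09. The medians of these 3 lists were above 0 under each alternative. With the mean or the median over probe sets, 4 endothelial markers were above 0 and 1 was below. Myoepithelial markers summed to 17952 and 16081 units and had a median of -0.29, with 2 of 6 above 0. The basal keratins Krt17, Krt14 and Krt5 were at -1.55, -0.69 and -0.47, while the contractile genes Acta2 and Myh11 and the oxytocin receptor Oxtr were at -0.11, 0.01 and 0.13. Luminal markers had a median of 0.15, with 5 of 6 above 0, and summed to 46144 and 48862 units. Among 4 adipocyte markers with a probe set, Fabp4 alone was above both floors, at -0.15, and it turned above 0 under both control scalings. Adipoq (66.6 and 29.2 units) and Lep were above the floor on the heterozygous array only, which fixes their direction, and Cidec was below it on both. Fibroblasts and basal cells also express Egfr, and the part of these differences in the ratios of the receptors and inhibitors was not tested. In pooled tissue RNA, fewer cells of a type and less RNA per cell cannot be told apart.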

How the data were processed

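The data are 1 value per probe set and array. Per the submitters' processing notes, the authors made linear signal intensity values with MAS5 in Affymetrix Expression Console version 1; the deposited intensity values have a mean of 150.0 on both arrays after 2% of values at each end are left out. No source used here names a genome build. Per the labels' protocols, minced inguinal glands were digested with hyaluronidase and collagenase and washed, with no sort recorded.

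Gene names came from the platform's probe table, updated through Entrez IDs. One symbol was given for 34945 non-control probe sets, several for 932 (none named from these), and 9160 were unlisted. No gene of several symbols was among the 10. Floors, log2 ratios, size rules of 2-fold and 1.5-fold, and the 500 genes nearest in mean signal were computed in Python 3.11.15 with pandas 2.3.3 and numpy 2.4.6. The procedure was first tested on simulated data, with changes larger than 2-fold in genes well above the floor. It was thus not tested on ratios as small as those of the ErbB receptors and feedback genes. With 1 array per genotype no test was run, and precision is limited by the number of arrays.

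The genes, lists and rules were chosen with earlier results of these data known. All measured EGF family ligands were named. From each other pathway list up to 3 measured genes were named, those farthest from 0 among genes 1.5-fold apart or more. Where none was, the 2 with the highest signal were named. Cell type markers were named by list. A gene counts as having a probe set only where a probe set was annotated to it alone. Listed genes without one, such as Areg and Hras, were not analysed here, and whether other probe sets read them was not examined. Alternatives were other floors (25th and 75th percentile, none), rescaling to controls, quantile normalization, centring, other probe set rules and symbols as listed.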

Additional observations from a re-analysis of the deposited data

How the results depend on the processing

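The count of ErbB receptor and feedback genes 2-fold apart stayed at 0 under each alternative except no floor, which gave 1, Erbb4, with both signals in the background. Their median was -0.08 as deposited, 0.15 rescaled to the hybridization controls and 0.18 rescaled to the poly-A controls. The count of all genes 2-fold apart was 256 (52.0% of them higher in null cells), and became 1483 with the floor at the 25th percentile, 63 at the 75th and 3559 with none. It was 408 rescaled to the hybridization controls (85.3% higher), 445 to the poly-A controls (87.0% higher), 154 with the median over all probe sets, and 1279 at 1.5-fold. With no floor or a low one, more genes and more background enter. Of 88 single-gene values under the alternatives, 69 moved by less than 0.21, the robust SD per probe set, and 19 by more. Of these 19, 18 were under the control scalings and 1 was Lrig1 with the mean over probe sets. The counts do not measure stability, because many outcomes were fixed in advance. Other floors and symbols as listed left each measured value unchanged, and genes with a single probe set could not move under the probe set rules. Centring and each control scaling moved all genes by a common amount, larger than 0.21 for the control scalings. No replicate could be left out with 1 array per genotype. No paired analysis was possible because each genotype has 1 array and the result comes from no test.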
